A study of Saccharomyces cerevisiae with 9 samples.

Results

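The genes described here are 10 genes of the pheromone response and of cell fusion in Saccharomyces cerevisiae: GPA1, FUS3, STE12, KAR4, AGA1, FUS1, FUS2, PRM1, FIG1 and FIG2. They were picked from a list of gene symbols matched to the array annotation, by a rule that uses no expression value, though earlier results of these data were known when the list was made. They make up 10 of the 5449 genes measured. Each is read by 1 probe set. The study asked which yeast transcripts change when cells meet bisphenol A (BPA), a building block of polycarbonate, at a low and a high dose. Cultures in rich YPD broth at 30 °C received BPA in ethanol at 50 or 300 mg/L during mid-exponential growth, and control cultures received an equal volume of ethanol alone. All 9 cultures, 3 per group, were harvested after 180 min, and each was read on 1 single-colour 3' expression array. Replicates are labelled as biological, but how each culture was begun is not stated, so the p-values measure the spread between these arrays. The sources used here give neither strain nor mating type, and they mention no mating partner, added pheromone or altered gene.

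Haploid budding yeast exist as a or alpha cells, and each type secretes a peptide pheromone that is bound by a receptor on the other. The receptor frees the beta and gamma subunits of a G protein from its alpha subunit, and a MAP kinase cascade held together by the scaffold Ste5 then activates the transcription factor Ste12. Ste12 turns on genes for agglutination, polarised growth, fusion of the cells and fusion of the nuclei. Many of these genes also run at a low basal level without pheromone.

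Values are on the log2 scale, so a difference of 1 is a doubling, and each reads a transcript against the rest of its own array. Background was taken as the 95th percentile of the 1746 Schizosaccharomyces pombe (fission yeast) probe sets on the array, and lay between 2.05 and 2.20. All 10 genes lay above it on 9 of 9 arrays, but so did 5363 to 5418 of the 5449 genes on each array. The median SD of the 10 genes was 0.07 in controls, 0.10 at 50 mg/L and 0.11 at 300 mg/L. Over all genes it was 0.07, 0.13 and 0.08. Replicate 2 at 50 mg/L deviated most over all genes: its median absolute deviation from the group mean was 0.11, against 0.04 to 0.09 on the other 8 arrays. Over the 10 genes this median was not the highest, at 0.088 against 0.036 to 0.091 on the other 8. Single genes still deviated there. FIG1, FIG2 and KAR4 had their largest deviation on this array, at -0.60, 0.19 and -0.215, and the rest of the 10 on other arrays. These are bulk cultures, in which fewer cells expressing a gene and less RNA per cell cannot be told apart. The number of arrays limits the precision.

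Genes that mark the mating type were examined first. The 4 alpha-specific genes are the pheromone genes MF(ALPHA)1 and MF(ALPHA)2, the a-factor receptor gene STE3 and the alpha-agglutinin gene SAG1, and they lay between 10.58 and 12.42 on the control arrays. The 7 a-specific genes, MFA1, MFA2, STE2, STE6, BAR1, AGA2 and ASG7, lay between 2.53 and 5.45 there, above background but with ASG7 and MFA2 close to it. Like nearly all genes measured, all 9 haploid-specific genes were above background on every array. Among them are HO, the mating type endonuclease gene, at 9.39 ± 0.02 (SD, n = 3) in controls, RME1, a repressor of entry into meiosis, at 8.82 ± 0.10, and NEJ1, a factor of DNA end joining, at 7.43 ± 0.04.

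**Figure D1:**
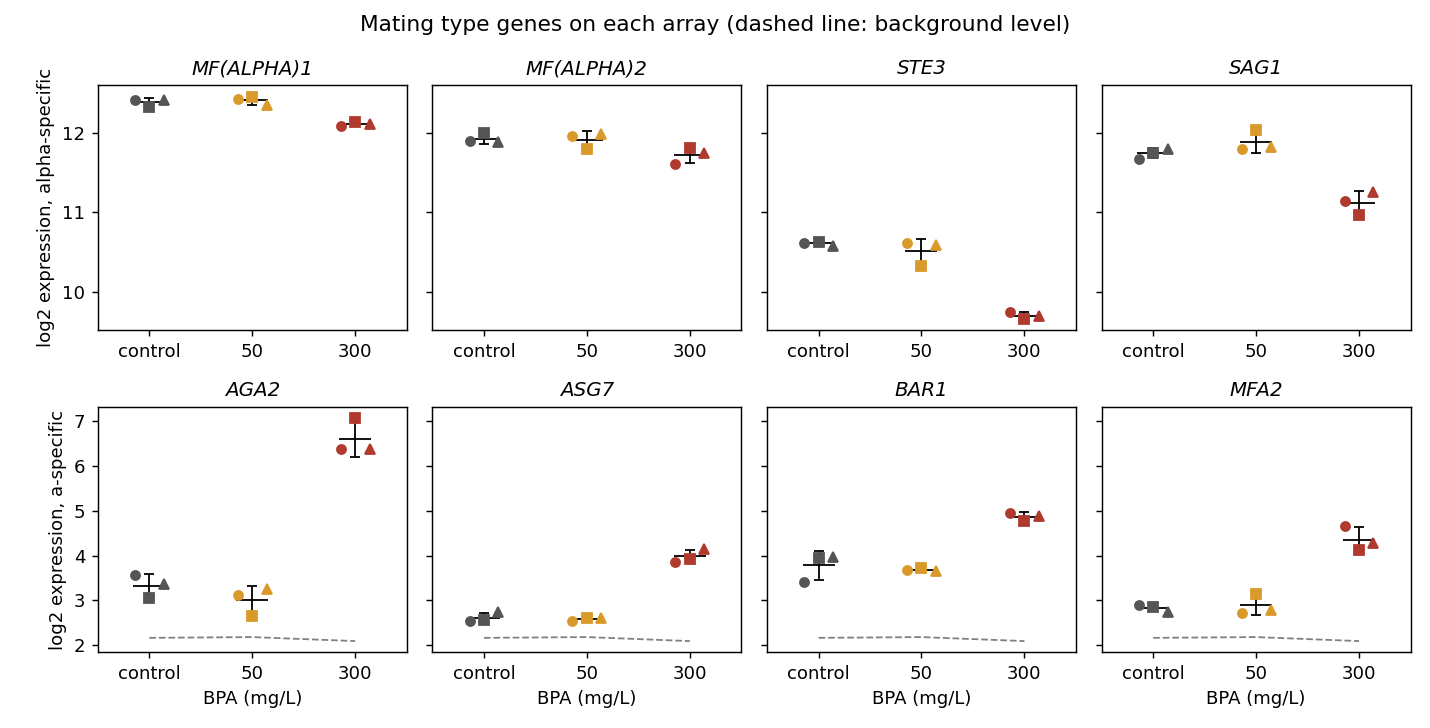
Log2 expression of the 4 alpha-specific genes (upper row) and of 4 of the a-specific genes (lower row) in control cultures and at 50 and 300 mg/L BPA. The a-specific genes drawn are the 4 that passed as higher at 300 mg/L. MFA1, STE2 and STE6, which did not pass, are not drawn. Circles, squares and triangles are replicates 1, 2 and 3, bars are the mean ± SD of 3 arrays and the dashed line is the group mean of the background level. The alpha-specific genes lie between 9.65 and 12.46 on all arrays, and AGA2 goes from 3.33 in controls to 6.61 at 300 mg/L.

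At 300 mg/L BPA, 5 of the 10 genes fell and 2 rose against control. The falls were those of FUS3, the MAP kinase of the mating pathway, KAR4, a transcription factor for nuclear fusion genes, AGA1, the anchor subunit of a-agglutinin, FUS1, a membrane protein of the fusion site, and FIG1, a membrane protein needed for calcium uptake during mating. FUS2, which acts in cell fusion inside the cell, and FIG2, a cell wall adhesin of mating cells, rose. The sizes were modest, from 1.22-fold for FIG2 to 1.63-fold for KAR4 and AGA1. STE12, GPA1, the G protein alpha subunit gene, and PRM1, a protein of membrane fusion, did not pass the test. These calls are from limma with Benjamini-Hochberg adjustment over all genes, at an adjusted p under 0.05. At this dose 52.7% of all genes passed, 27.5% higher and 25.2% lower, so 7 of 10 genes is to be read against a background in which more than every other gene passed. Of the 10, 5 had all 3 arrays at 300 mg/L below the 3 controls, 4 had all above and PRM1 overlapped, where 67.8% of all genes did not overlap, 32.6% lower and 35.2% higher. The median change of the 10 genes was -0.35, against 0.01 over all genes. The count depended on single arrays: without control replicate 2, without control replicate 3 or without 300 mg/L replicate 3 it was 4, all lower, and these 4 were FUS1, FUS3, AGA1 and KAR4. The count over all genes, 2872 in the main fit, also moved, from 2338 to 3313 with 1 array left out.

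**Figure D2:**
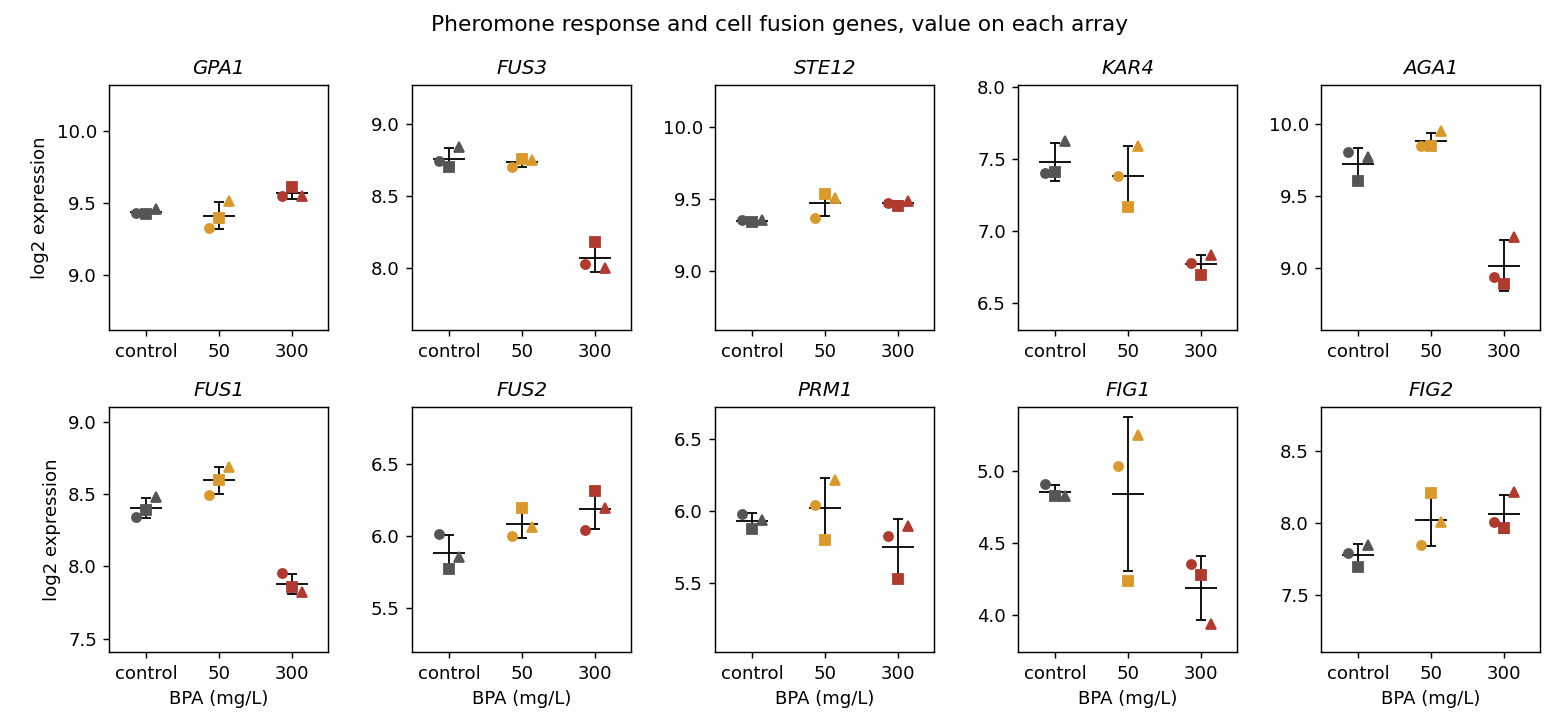
Log2 expression of the 10 genes on each of the 9 arrays, by BPA concentration, with all panels spanning the same range on the log2 axis. Circles, squares and triangles are replicates 1, 2 and 3, and bars are the mean ± SD of 3 arrays. FUS3, KAR4, AGA1 and FUS1 have their 3 arrays at 300 mg/L below all 6 other arrays, while STE12 stays between 9.34 and 9.54 and GPA1 between 9.32 and 9.61.

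Among the signalling genes, the MAP kinase and the G protein gene differed in their values. FUS3 encodes the kinase that phosphorylates Ste12 and its inhibitors and also arrests the cell cycle through Far1. It read 8.74, 8.70 and 8.84 on the control arrays, 8.70, 8.76 and 8.75 at 50 mg/L and 8.03, 8.18 and 8.002 at 300 mg/L. The 3 arrays at 300 mg/L lay below the other 6, which overlapped one another. FUS3 fell by 0.69 ± 0.07 (SE) at 300 mg/L, a 1.61-fold change with a limma adjusted p of 4.04e-05, the smallest of the 10 genes. KSS1, the related kinase of filamentous growth, was looked up after its value was seen and fell by 0.26 ± 0.09 (adjusted p = 0.0279), a call lost in 5 of 20 alternatives, among them leaving out control replicate 1 or 2 or 300 mg/L replicate 1, with adjusted p from 0.00541 to 0.151. GPA1 read 9.43, 9.42 and 9.45 in controls, 9.32, 9.39 and 9.51 at 50 mg/L and 9.55, 9.61 and 9.54 at 300 mg/L. Its arrays at 300 mg/L were all above the 3 controls, but by little: the change was 0.13 ± 0.07, with a 95% interval from -0.02 to 0.28 and an adjusted p of 0.123. Over 20 alternative settings its adjusted p ran from 0.0433 to 0.898, and it passed when arrays were centred on the S. pombe probe sets and when only the 6 arrays compared were fitted.

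The transcription factors also differed. STE12 read 9.35, 9.34 and 9.36 in controls, 9.37, 9.54 and 9.51 at 50 mg/L and 9.47, 9.45 and 9.49 at 300 mg/L. Its control arrays were nearly equal, and the 6 treated arrays all lay just above them. The change at 300 mg/L was 0.12 ± 0.06, with a 95% interval from -0.02 to 0.26 and an adjusted p of 0.147, which ran from 0.0317 with array weights to 0.925 over the alternatives. KAR4, which works with Ste12 on genes for nuclear fusion, read 7.40, 7.41 and 7.63 in controls, 7.39, 7.17 and 7.59 at 50 mg/L and 6.78, 6.70 and 6.83 at 300 mg/L. Its lowest array outside the 300 mg/L group, replicate 2 at 50 mg/L, still lay above all 3 at 300 mg/L. KAR4 fell by 0.71 ± 0.11, or 1.63-fold (adjusted p = 0.000453).

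Of the agglutinin genes, AGA1 and SAG1 fell at 300 mg/L while AGA2 rose. Aga1 anchors a-agglutinin in the cell wall, Aga2 is the subunit that binds alpha-agglutinin, and Sag1 is alpha-agglutinin itself. AGA1 read 9.80, 9.60 and 9.77 in controls, 9.85, 9.84 and 9.95 at 50 mg/L and 8.94, 8.89 and 9.22 at 300 mg/L. All 3 values at 50 mg/L were above the 3 controls and all 3 at 300 mg/L were below them. AGA1 fell by 0.71 ± 0.10 at 300 mg/L, or 1.63-fold (adjusted p = 0.000219), and SAG1 fell by 0.63 ± 0.09 (adjusted p = 0.000383). AGA2 read 3.58, 3.05 and 3.36 in controls and 6.38, 7.07 and 6.39 at 300 mg/L, a rise of 3.29 ± 0.21 (adjusted p = 2.69e-06) from close to background.

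The genes of the fusion site split. Fus1 is a membrane protein that gathers at the tip of the mating projection and helps the walls between partners to be removed. FUS1 read 8.35, 8.39 and 8.48 in controls, 8.50, 8.60 and 8.69 at 50 mg/L and 7.96, 7.86 and 7.82 at 300 mg/L. The 3 groups did not overlap, with 50 mg/L highest and 300 mg/L lowest. FUS1 fell by 0.53 ± 0.07 at 300 mg/L, or 1.44-fold (adjusted p = 0.000277). FUS2, whose product binds the amphiphysin Rvs161 in fusing cells, read 6.02, 5.77 and 5.85 in controls, 5.9995, 6.20 and 6.06 at 50 mg/L and 6.04, 6.31 and 6.20 at 300 mg/L. The lowest array at 300 mg/L lay 0.03 above the highest control. FUS2 rose by 0.30 ± 0.09, or 1.23-fold (adjusted p = 0.0205), but the call was lost in 7 of 20 alternatives, among them renewed quantile normalization, spike-in centring and leaving out any 1 of 4 arrays (control replicates 2 and 3, 300 mg/L replicates 2 and 3), with adjusted p from 0.00352 to 0.422 over all 20.

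PRM1 encodes a protein that stabilises the joined plasma membranes. It read 5.98, 5.87 and 5.93 in controls, 6.04, 5.80 and 6.21 at 50 mg/L and 5.82, 5.53 and 5.89 at 300 mg/L, and the 3 groups overlapped. Its change of -0.18 ± 0.12 had a 95% interval from -0.44 to 0.08 and an adjusted p of 0.228, which ran from 0.0111, at -0.38 after renewed quantile normalization, to 0.642 over the alternatives.

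The FIG genes, named as factor-induced genes, went opposite ways. FIG1 read 4.91, 4.83 and 4.83 in controls, 5.03, 4.24 and 5.25 at 50 mg/L and 4.36, 4.28 and 3.94 at 300 mg/L. The controls were tight and the arrays at 300 mg/L all lower, while replicate 2 at 50 mg/L lay well below the rest of its group and inside the range of 300 mg/L. FIG1 fell by 0.66 ± 0.22, or 1.58-fold (adjusted p = 0.0261). The call was lost without any 1 control array or without 300 mg/L replicate 3, and renewed quantile normalization moved the change to -1.22. Over the 20 alternatives the adjusted p ran from 0.000396 to 0.0932. FIG2 read 7.79, 7.69 and 7.84 in controls, 7.85, 8.21 and 8.01 at 50 mg/L and 8.003, 7.97 and 8.21 at 300 mg/L. All 6 treated arrays lay above the 3 controls, the lowest by less than 0.01. FIG2 rose by 0.28 ± 0.10 at 300 mg/L (adjusted p = 0.0378), a call lost in 7 of 20 alternatives, with adjusted p from 0.00236 to 0.468. These were spike-in centring and leaving out control replicates 1, 2 or 3, 50 mg/L replicate 3, or 300 mg/L replicates 1 or 3.

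**Figure D3:**
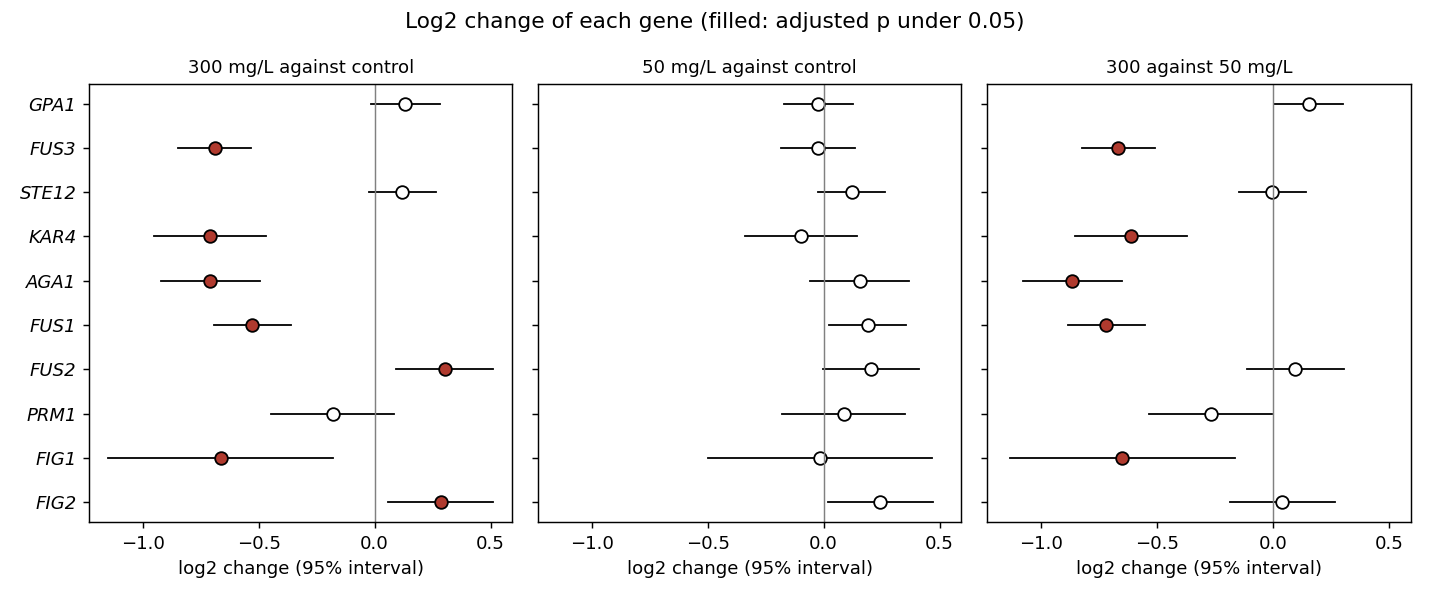
Log2 change of each of the 10 genes in the 3 comparisons, with the 95% interval from limma. Filled points passed an adjusted p of 0.05. At 300 mg/L the changes run from -0.71 for KAR4 to 0.30 for FUS2, at 50 mg/L all points are open, and against 50 mg/L the 5 filled points are all below 0.

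At 50 mg/L BPA, 0 of the 10 genes passed against control, as did 0% of all genes by limma, with 7.14% at an unadjusted p under 0.05. Fitted with array weights, which was the other weighting run, 31 of 5449 genes passed and again 0 of the 10. With a replicate block within these 6 arrays, 1 gene passed, which was not among the 10. Of the 10 genes, FUS1 and FIG2 were under an unadjusted p of 0.05, with changes of 0.19 ± 0.07 and 0.24 ± 0.10. FUS1, STE12, AGA1 and FIG2 had all 3 arrays at 50 mg/L above all 3 controls, which 6.06% of all genes had, and 0 of the 10 had all 3 below, which 6.5% had, or 12.6% in either direction. The adjusted p of the 10 genes ran from 0.581 to 0.981 without pairing, and from 0.543 to 0.979 with same-numbered arrays paired. The change of FUS3 was -0.02, with a 95% interval from -0.18 to 0.13, or -0.20 to 0.15 with same-numbered arrays paired. That of GPA1 was -0.02, from -0.17 to 0.13, or -0.18 to 0.14 paired. FIG1 was the least certain, at -0.02 with an interval from -0.50 to 0.47, or -0.49 to 0.46 paired, and without replicate 2 at 50 mg/L it was at 0.29 and KAR4 at 0.0094, neither of which passed. Centring on hybridization spike-ins lowered the median of all genes by 0.11 in this comparison, and it turned PRM1 from 0.09 to -0.02, while FUS1, FUS2, STE12, AGA1 and FIG2 kept their direction.

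Set against 50 mg/L, the 300 mg/L cultures show the step between the doses, and this comparison shares the 300 mg/L arrays with the first comparison. FUS1, FUS3, AGA1, KAR4 and FIG1 were lower at 300 mg/L and 0 of the 10 genes were higher, where 52.8% of all genes passed, 25.3% lower and 27.5% higher. AGA1 differed most, at -0.86 ± 0.10 or 1.82-fold (adjusted p = 6.54e-05), and FUS1 by -0.72 ± 0.07 or 1.64-fold (adjusted p = 4.61e-05). FUS3 differed by -0.67 ± 0.07 and KAR4 by -0.61 ± 0.11, with adjusted p of 5.36e-05 and 0.00106. For these 4 genes all 3 arrays at 300 mg/L lay below those at 50 mg/L, and GPA1 alone had all 3 above, where 59.6% of all genes did not overlap, 28.8% lower and 30.9% higher. For the same 4 all 20 alternatives kept the call. FIG1 differed by -0.65 ± 0.22 (adjusted p = 0.0287) with overlapping groups. Its call was lost when only the 6 arrays compared were fitted and without 50 mg/L replicates 1 or 3 or 300 mg/L replicate 3, with adjusted p from 8.82e-05 to 0.105 over the alternatives. FUS2 and FIG2, which rose against control, differed from 50 mg/L by 0.10 (interval -0.11 to 0.31) and 0.04 (interval -0.19 to 0.27). STE12 differed by 0.00, with an interval from -0.15 to 0.14 and an adjusted p of 0.988. PRM1, at -0.27 ± 0.12 (adjusted p = 0.0816), passed without replicate 2 at 50 mg/L, at -0.38, and its adjusted p ran from 0.00261 to 0.345 over the alternatives.

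The 10 genes did not follow one pattern over the arrays. For FUS1, FUS3, AGA1 and KAR4, Pearson's r between pairs ran from 0.88 to 0.94 over the 9 arrays, which fall into the 3 groups. After the group means were taken out, r for the same 6 pairs ran from -0.26 to 0.47. These 4 genes were taken from the 5 that were lower at 300 mg/L, which by itself gives a high r over the 9 arrays. FIG1, the one left out, had r from 0.69 to 0.85 with them, and from -0.10 to 0.64 without the group means. Among all genes, the patterns closest to FUS1 over the 9 arrays were those of TOM71, a mitochondrial import receptor gene (r = 0.98), PCT1, of phosphatidylcholine synthesis (r = 0.97), and HSE1, of endosomal sorting (r = 0.97). Closest to KAR4, which with AGA1 had the largest change at 300 mg/L against control (-0.71 each), were NMT1, the N-myristoyl transferase gene (r = 0.98), LYS12, of lysine synthesis (r = 0.98), and TEX1, of mRNA export (r = 0.97). With 25.2% of all genes lower at 300 mg/L, a high r over so few arrays is a description of shape.

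Other genes of the pathway, from lists taken from textbook roles, moved in both directions at 300 mg/L. Of 80 genes 16 rose and 19 fell, with a median change of -0.05, and the share that passed was below the 52.7% of all genes. With spike-in centring, 17 of the 80 passed, 6 higher and 11 lower, as the count over all genes went from 2872 to 1532. In the signalling cascade 6 of 14 genes fell and 1 rose, or 3 and 0 with spike-in centring. Over all genes 25.2% fell and 27.5% rose in the main fit. The receptor gene STE3 fell by 0.91 ± 0.08, from 10.61 ± 0.03 to 9.70 ± 0.04 (SD, n = 3), and the G protein gamma subunit gene STE18 fell by 0.54 ± 0.10. Its beta subunit gene STE4 had a change of -0.03 ± 0.06 (adjusted p = 0.701). The scaffold gene STE5 fell by 0.25 ± 0.07 and FAR1, the cell cycle inhibitor of the pathway, by 0.42 ± 0.07. The kinase gene STE7, which acts directly above Fus3, rose by 0.26 ± 0.06. STE5 lost its call without 300 mg/L replicate 1 and with spike-in centring, with adjusted p from 0.00368 to 0.159 over the alternatives.

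Of 8 negative regulators 2 rose and 1 fell, where 52.7% of all genes passed. DIG2, an inhibitor of Ste12, fell by 0.42 ± 0.09. BAR1, a protease that degrades alpha pheromone and is an a-specific gene, rose by 1.09 ± 0.14, and the tyrosine phosphatase gene PTP2 rose by 0.30 ± 0.10, a call lost in 5 of 20 alternatives, among them leaving out control replicate 1 or 3 or 300 mg/L replicate 1 or 2, with adjusted p from 0.00356 to 0.433. Of 20 other pheromone-induced genes 7 rose and 2 fell, where 27.5% of all genes rose and 25.2% fell. HYM1, a component of a polarity kinase network, fell by 0.72 ± 0.08 and the cyclin gene PCL2 by 0.62 ± 0.08. The largest rises were those of PRM7, at 1.69 ± 0.28 on the brighter of its 2 probe sets, and of ASG7, an a-specific gene, at 1.37 ± 0.09. The other 11 genes of this list did not pass the test.

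Of 15 factors of cell and nuclear fusion that act outside the pheromone response too, 4 rose and 1 fell. Over all genes 52.7% passed, 27.5% higher and 25.2% lower. The microtubule plus-end gene BIM1 rose by 0.45 ± 0.08, the polarity scaffold gene SPA2 by 0.44 ± 0.12, and the chaperone gene JEM1, which nuclear fusion needs, fell by 0.22 ± 0.08. The count of 5 was 2 without control replicate 1, control replicate 3 or 300 mg/L replicate 1, 3 without control replicate 2, 50 mg/L replicate 3 or 300 mg/L replicate 3, 7 without 50 mg/L replicate 2 and 0 with spike-in centring. JEM1 lost its call in 9 of 20 alternatives, with adjusted p from 0.00288 to 0.217. Pheromone production and export had 7 of 14 genes lower and 1 higher, or 2 lower and 1 higher with spike-in centring. Of all 5449 genes 25.2% were lower in the main fit, and 853 were lower and 679 higher with spike-in centring. STE13, the aminopeptidase that trims alpha pheromone, fell by 0.48 ± 0.09 and the protease gene AXL1, which acts on a pheromone, by 0.38 ± 0.10. MFA2, a gene for a pheromone, rose by 1.52 ± 0.14 from 2.84 ± 0.08 in controls. In the filamentous growth list, which shares Ste12 through its partner Tec1, the adhesin gene FLO11 fell by 0.53 ± 0.14, TEC1 by 0.43 ± 0.09, and the activator gene FLO8 rose by 0.27 ± 0.10. FLO8 lost its call in 8 of 20 alternatives, with spike-in centring and without any 1 control array, any 1 array at 300 mg/L or 50 mg/L replicate 3, with adjusted p from 0.0059 to 0.518. Of the 9 genes of this list 1 rose and 2 fell, a share below the 52.7% of all genes that passed. These 3 calls became 6 without 50 mg/L replicate 2. At 50 mg/L 0 of the 80 genes passed by limma and 9 were under an unadjusted p of 0.05, as were 7.14% of all genes. With array weights 1 passed, KEL1, a factor of cell fusion and morphology, at 0.33 ± 0.06.

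**Figure D4:**
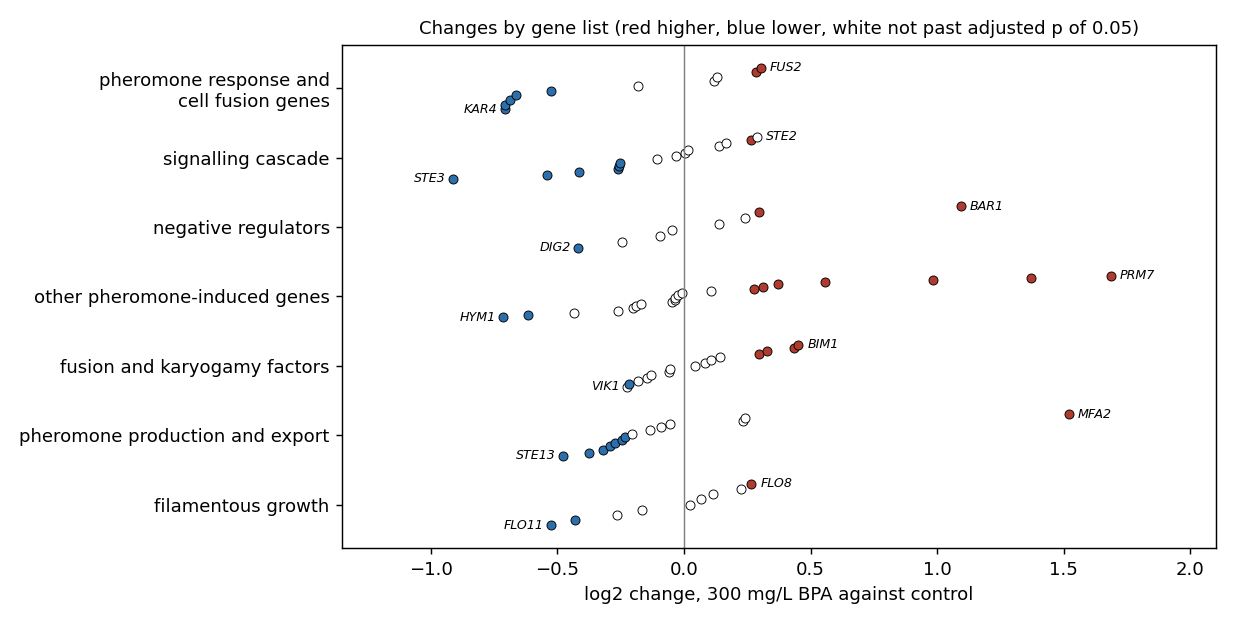
Log2 change at 300 mg/L BPA against control for the 10 genes (top row) and for 6 lists of other pathway genes, 1 point per gene. Red points rose, blue points fell and white points did not pass the test, and the lowest and highest gene of each list is named. The cascade list reaches from STE3 at -0.91 to STE2 at 0.29, and the pheromone-induced list from HYM1 at -0.72 to PRM7 at 1.69.

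Mating type genes moved in the same cultures. At 300 mg/L, 4 of 7 a-specific genes rose and 0 fell, 3 of 4 alpha-specific genes fell and 0 rose, and 5 of 9 haploid-specific genes, FUS3 among them and GPA1 not, fell while 0 rose. Over all genes 27.5% rose and 25.2% fell. The a-specific genes are dim beside the median of all genes, 8.03 on the control arrays, and a share among equally dim genes was not computed. The median of all probe sets was 4.44 to 4.58 in controls and 4.86 to 4.96 at 300 mg/L. Genes above background numbered 5365 to 5374 and 5415 to 5418. The median of the S. pombe probe sets went the other way, from 1.38 to 1.40 in controls to 1.33 to 1.36. The summed linear level of the 7 a-specific genes was 109.0 to 116.3 in controls and 240.4 to 276.7 at 300 mg/L, with AGA2 the main contributor: without it the sum of the other 6 was 98.74 to 104.4 and 141.9 to 164.8. The summed level of the 4 alpha-specific genes was 14130 to 14420 in controls and 10630 to 11130 at 300 mg/L. For the 9 haploid-specific genes it was 4353 to 4386 in controls and 3697 to 3946 at 300 mg/L. No marker was at 0 or at background. MF(ALPHA)1 fell by 0.27 ± 0.06, MF(ALPHA)2 differed by -0.21 ± 0.08 (adjusted p = 0.0513), RME1 fell by 0.36 ± 0.11, which did not pass without control replicate 1, without 300 mg/L replicate 2 or with spike-in centring (adjusted p from 0.00466 to 0.0607 over the alternatives), and HO and NEJ1 differed by -0.24 ± 0.12 and 0.18 ± 0.08 (adjusted p = 0.136 and 0.107). The a-specific genes MFA1, STE2 and STE6 differed by 0.23 ± 0.09, 0.29 ± 0.13 and 0.24 ± 0.11, with adjusted p from 0.0585 to 0.0884. Renewed quantile normalization, which used the S. cerevisiae genes alone, turned these 3 to -0.32, -0.27 and -0.060, of which MFA1 then passed as lower. It also lowered the rises of MFA2, ASG7 and BAR1 to 0.94, 0.70 and 0.55, which still passed. Without 300 mg/L replicate 2, MFA1, STE2, MF(ALPHA)2 and HO passed in their main direction, as did STE6 without control replicate 1, STE2 without control replicate 2, and MFA1, MF(ALPHA)2 and NEJ1 without 50 mg/L replicate 2. The part of these shifts in the changes of the 10 genes was not tested.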

How the data were processed

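The deposited values are log2 expression, made by the authors and given for every probe set on every array. The tools listed per the submitters' processing notes are RMA, affy and limma, without version or role. RMA is a method that corrects background, equalises probe intensities between arrays and summarises probe sets. The scaling carries no measure of total mRNA, and the values carry no counts.

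Of 10928 probe sets, 5498 matched S. cerevisiae genes in the R64 gene table through the platform annotation. The probe set with the highest mean was kept per gene. Differences were tested with limma 3.58.1 in R 4.3.3 over all 9 arrays, two-sided, with Benjamini-Hochberg adjustment over 5449 genes at 0.05. The same code was tested on simulated arrays. Errors of changes are SEs from that fit.

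Named genes are the 10 members, the mating type markers, up to 2 rises and 2 falls per list at 300 mg/L, and the 3 genes most like FUS1 and KAR4. Outside this rule, KSS1 and the chromosomal neighbours were named after their values were seen. KEL1 was named because it passed at 50 mg/L with array weights. Members and lists were chosen with earlier results of these data known. The lists share genes with the marker lists.

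Same-numbered control and 50 mg/L arrays deviated together, but weakly (r from 0.19 to 0.42 for 3 pairs). The 6 differently numbered pairs of these groups had r from -0.43 to 0.18, which comes close to the lowest of the 3. The arrays were taken as paired only in the values marked as paired and in the fits with a replicate block. The main fit had no pairing, and its p-values and SEs at 50 mg/L do not take it into account. For same-numbered control and 300 mg/L arrays r ran from -0.34 to 0.09, and for 50 and 300 mg/L from -0.26 to 0.16. Differently numbered arrays of these groups had r from -0.30 to 0.33 and from -0.29 to 0.40. Promoter motifs were not analysed here. Figures used matplotlib 3.10.9.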

Additional observations from a re-analysis of the deposited data

How the results depend on the processing

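The counts of genes called, by list and over all genes, the changes of the 10 genes and those of the other named pathway and marker genes at 300 mg/L against control were recomputed under 20 alternatives. Of these 19 were planned and 1, the replicate block within the 2 groups compared, was added after seeing the data. Correlations, neighbours and counts of groups that do not overlap were not recomputed. For FUS1, FUS3, AGA1 and KAR4 all 20 kept direction and call at 300 mg/L against control and against 50 mg/L. Leaving out 1 array at a time gave 4 to 7 of the 10 genes called at 300 mg/L against control, 0 at 50 mg/L and 4 to 6 for 300 against 50 mg/L. With the replicate number as a block over all 9 arrays, 7, 0 and 6 genes were called, PRM1 being added to the last (adjusted p = 0.0253). With the block within the 2 groups compared, 6, 0 and 6 were called, PRM1 again in the last (adjusted p = 0.0425). At 300 mg/L against control FUS2 was then lost (adjusted p = 0.0631), though these groups are not taken as paired. The block changed no other call of the 10 genes. Of the 80 other pathway genes, spike-in centring called 17 at 300 mg/L against control and 20 against 50 mg/L, where the main count was 42, and array weights called 1 at 50 mg/L. The cause was not tested. Spike-in centring also ended the calls of STE7, BIM1, SPA2 and MF(ALPHA)1. Over all genes it called 1417 of 5449 in the last comparison.

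Of the changes whose sign turned, MFA1 at 300 mg/L against control passed after renewed quantile normalization, at -0.32, and no other passed in either setting. The same setting put STE2 at -0.27 and STE6 at -0.060, and S. pombe centring put STE4 at 0.015. At 50 mg/L against control, array weights put FUS3 at 0.0088, FIG1 at 0.35, KAR4 at 0.10 and GPA1 at 0.058, and spike-in centring put PRM1 at -0.022. Leaving out 1 array at a time moved FUS3 from -0.053 to 0.015, FIG1 from -0.22 to 0.29, KAR4 from -0.20 to 0.0094, PRM1 from -0.011 to 0.20 and GPA1 from -0.074 to 0.019. For 300 against 50 mg/L, renewed quantile normalization put FUS2 at -0.024, and spike-in and S. pombe centring put STE12 at 0.020 and 0.039. Leaving out 1 array moved STE12 from -0.052 to 0.032 and FIG2 from -0.046 to 0.13. The causes were not tested. Which direction held more genes at 300 mg/L also depended on the scaling, with 1300 higher and 1629 lower after renewed quantile normalization and 1706 and 1158 after S. pombe centring, where the main fit had 1500 and 1372.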

Other observations

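The chromosomal neighbours of the 10 genes were listed after their values were seen. Over all genes 52.7% passed at 300 mg/L, 25.2% lower and 27.5% higher, and the counts of neighbours are to be read against these shares. Of 9 measured genes next to the 5 that fell at 300 mg/L, 6 fell, 2 rose and 1 did not pass. Of 4 genes next to FUS2 and FIG2, which rose, 0 rose, 1 fell and 3 did not pass, and of 6 next to STE12, GPA1 and PRM1, which did not pass, 2 rose and 4 did not pass. FIG1 lies between ATP3, a subunit of the mitochondrial ATP synthase, which fell by 0.95 ± 0.09, and FAT1, a fatty acid transporter gene, which fell by 0.83 ± 0.08. Both genes beside FUS3 fell as well, PEP1, a vacuolar sorting receptor gene, by 0.40 ± 0.09 and ACH1, of acetate metabolism, by 0.23 ± 0.07. Beside KAR4, PEX34, of peroxisome number, rose by 0.37 ± 0.07, and beside AGA1 the mevalonate pathway gene MVD1 rose by 0.41 ± 0.07 while PET494, a translational activator in mitochondria, fell by 0.42 ± 0.08.

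Deviations from the group means over the 9 arrays were compared for every pair of the 10 genes. The highest r was 0.81, for STE12 and FIG2, and the lowest -0.75, for FIG1 and FIG2, the extremes of all pairs. STE12 deviated by -0.10, 0.07 and 0.04 on the 50 mg/L arrays, where FIG2 deviated by -0.17, 0.19 and -0.01. On control and 300 mg/L arrays STE12 deviated by at most 0.02, so its r rests mostly on the 50 mg/L arrays. FIG1 deviated by -0.60 and FIG2 by 0.19 on replicate 2 at 50 mg/L, the array that deviated most over all genes.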
